A study of Mus musculus with 24 samples.

Results

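The circadian clock genes were examined in the blood of young and old mice with and without x-ray exposure. They are 10 genes taken by name, *Per1*, *Per2*, *Per3*, *Arntl*, *Clock*, *Cry1*, *Cry2*, *Nr1d1*, *Nr1d2* and *Dbp*, of 29742 gene names on the array. All 10 had at least 1 probe, with 15 probes in all, and 8 passed the filters that left 17464 genes for testing. *Per3* and *Nr1d1* did not pass, because their probes were not above background in enough arrays. The 24 male C57BL/6J mice fell into 4 groups of 6: young (2 months) unirradiated, young irradiated, old (21 months) unirradiated and old irradiated. Irradiated mice received 4 Gy of x-rays, and blood was drawn by cardiac puncture 24 h later. Unirradiated and irradiated mice shared sex, strain and tissue, and each array is labelled as 1 mouse. The labelled tissue, whole blood, was borne out by erythroid, platelet and leukocyte markers in every group, but transcripts of hepatocyte markers were also present in some arrays, as described beside the results they touch.

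The clock of mammalian cells is a feedback loop of transcription. The proteins of *Clock* and *Arntl* (also called Bmal1) pair and switch on *Per*, *Cry*, *Nr1d* and *Dbp* genes through a DNA element named the E-box, the PER and CRY proteins then hold that pair back, and the NR1D proteins (REV-ERBs) repress *Arntl*. Levels of these transcripts rise and fall over the day in blood cells as in liver, so that a single time point shows one phase of the cycle. The time of day at which mice were irradiated or bled is not given in the sources used here, and its part in the differences between groups was not tested.

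The promoters of clock genes carry the elements through which the loop acts, and 5 are printed here. *Per1* and *Cry1* are shown because they held the E-box, *Nr1d2* because it held the core to which REV-ERB and ROR proteins bind, and *Cry2* and *Dbp* because their levels varied together among mice and neither held any motif searched. Each is the 250 bases before the RefSeq start site on GRCm38.p6, read 5′ to 3′ along the gene, with matches in capitals.
*Per1* (chr11:69098699-69098948, plus strand): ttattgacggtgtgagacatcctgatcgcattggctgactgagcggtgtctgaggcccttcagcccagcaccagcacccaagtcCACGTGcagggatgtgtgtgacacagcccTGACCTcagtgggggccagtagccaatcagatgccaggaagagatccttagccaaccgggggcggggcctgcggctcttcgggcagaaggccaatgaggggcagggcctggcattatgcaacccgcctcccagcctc
*Cry1* (chr10:85185055-85185304, minus strand): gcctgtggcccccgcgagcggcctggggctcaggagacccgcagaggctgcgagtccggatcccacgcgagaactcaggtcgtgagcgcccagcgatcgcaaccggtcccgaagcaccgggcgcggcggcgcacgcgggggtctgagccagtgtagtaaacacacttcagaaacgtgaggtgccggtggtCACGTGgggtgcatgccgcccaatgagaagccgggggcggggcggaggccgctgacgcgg
*Nr1d2* (chr14:18239107-18239356, minus strand): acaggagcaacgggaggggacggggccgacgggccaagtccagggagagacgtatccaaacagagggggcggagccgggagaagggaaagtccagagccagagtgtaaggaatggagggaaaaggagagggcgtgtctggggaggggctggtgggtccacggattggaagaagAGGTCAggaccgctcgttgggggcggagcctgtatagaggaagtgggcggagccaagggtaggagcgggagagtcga
*Cry2* (chr2:92434070-92434319, minus strand): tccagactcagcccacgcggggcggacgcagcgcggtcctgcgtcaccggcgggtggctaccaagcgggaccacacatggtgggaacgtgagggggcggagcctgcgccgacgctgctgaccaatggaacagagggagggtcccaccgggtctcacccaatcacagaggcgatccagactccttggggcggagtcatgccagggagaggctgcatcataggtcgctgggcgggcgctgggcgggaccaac
*Dbp* (chr7:45704997-45705246, plus strand): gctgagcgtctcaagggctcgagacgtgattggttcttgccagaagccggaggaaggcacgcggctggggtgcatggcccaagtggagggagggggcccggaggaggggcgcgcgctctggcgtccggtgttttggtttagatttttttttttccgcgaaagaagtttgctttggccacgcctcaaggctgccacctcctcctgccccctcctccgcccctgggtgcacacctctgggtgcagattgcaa
The motifs were the E-box (CACGTG), the D-box bound by DBP (TTANGTAA), the REV-ERB and ROR core (AGGTCA) and the cAMP response element (TGACGTCA), each on both strands, and no matches overlapped. RefSeq gave 13 such windows for 9 of the 10 genes, and *Per2* had none. The E-box lay in windows of 2 genes, at base 166 before the start in *Per1* and at base 60 in *Cry1*, and in 6.02% of all 32851 windows. The D-box lay in *Per3* only, at bases 205 and 158, and in 2.06% of all windows. The AGGTCA core lay in 3 genes (*Per1*, *Clock* and *Nr1d2*) and in 14% of all windows. The cAMP response element was found in 0 of the 9 genes and in 1.55% of all windows. A match is a run of letters and not a measured binding site.

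Before scaling, the median signal of an array ran from 8.66 to 44.8, and 43.9% to 64.4% of spots were well above background. Old irradiated mice 4 and 6 had the lowest array medians, 8.66 and 8.84, against 14.4 or more in every other array. In these same mice the erythroid marker list stood at 8.19 and 8.22, against 3.36 to 4.5 in the other 4 old irradiated mice, as a mean log2 level over 10 genes. In this text a log2 level is the log2 of the processed spot signal minus the median of its array. Hepatocyte markers (15 genes on the array, among them *Alb*, which encodes serum albumin) stood between 8.12 and 9.82 in young irradiated mice 2, 4 and 5 and in old irradiated mice 2, 3 and 5. The other 18 mice lay between -1.37 and 5.80. Young and old arrays were scanned on different days and lay on different slides, so that age and scan day cannot be told apart. Within each age a single slide held both unirradiated and irradiated mice, 2 of each, and the other slides held only 1 of these groups. Radiation and slide can therefore be told apart only in part. The arrays of young irradiated mice 2 and 5 differed by 0.13 (scaled median absolute log2 difference), those of old unirradiated mice 1 and 6 by 0.14 and those of young irradiated mice 1 and 6 by 0.18, less than any other pair of mice and near the differences between repeat spots within an array. Whether such arrays share RNA was not tested, and n is 6 a group as labelled.

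The levels of all 10 genes in single mice are plotted by group. *Per1*, *Cry2*, *Nr1d2* and *Dbp* were well above background in all 24 mice, *Arntl* in 23 and *Clock* in 22, whereas *Nr1d1* reached this mark in 11 mice, *Per2* and *Cry1* in 8 each and *Per3* in 0. *Per3*, a period gene, was not well above background in any mouse, though 8 of 24 spots passed the scanner software's weaker mark of a signal above background, and its log2 values ran from -3.40 to -0.33.

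**Figure D1:**
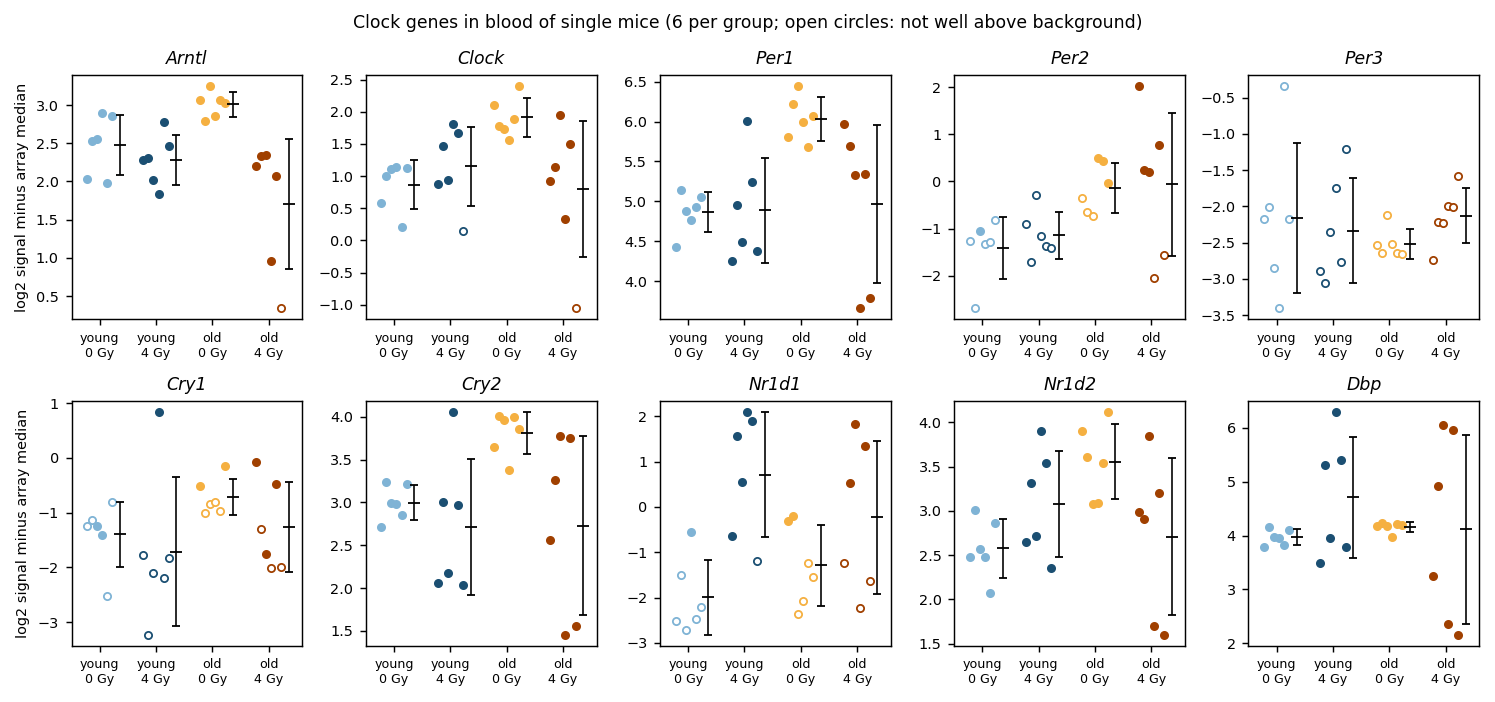
Log2 signal minus array median (vertical axis) of the brightest probe of each clock gene, by group (0 Gy, unirradiated; 4 Gy, irradiated), with 6 mice per group, 1 point per mouse and black marks for mean and SD. In *Dbp* the unirradiated mice lie within 3.78 to 4.24 and the irradiated mice spread from 2.16 to 6.30.

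The first question was how the clock genes differed 24 h after exposure in young mice. No clock gene passed the thresholds in either direction, 0 of the 8 tested, although 35.8% of all genes tested did. A gene was called where limma gave p below 0.005 and an adjusted p (Benjamini-Hochberg over the 17464 genes) below 0.05. With slide as a block, 10.4% of all genes and 0 of the 8 clock genes were called. The median log2 difference, irradiated minus unirradiated, was 0.14 over the 8 clock genes and -0.20 over all genes. In bulk blood, fewer cells of a type and less RNA per cell cannot be told apart. Of the activators, *Clock* ran from 0.21 to 1.14 (median 1.05) in unirradiated and from 0.14 to 1.80 (median 1.20) in irradiated young mice. The groups overlapped, and the difference of 0.29 (SE 0.28) had a limma adjusted p of 0.431. Of the repressors, *Per1* had medians of 4.91 and 4.73, with an irradiated range of 4.26 to 6.00 that enclosed the unirradiated range of 4.44 to 5.14. *Cry2* had medians of 2.98 and 2.57, and *Cry1* of -1.25 and -1.96. In *Cry1* a single irradiated mouse, young irradiated 4, stood at 0.84 while the other 5 lay at -1.78 or lower. The limma adjusted p-values were 0.964 for *Per1*, 0.483 for *Cry2*, 0.655 for *Cry1* and 0.518 for *Per2*. *Nr1d2*, a repressor of *Arntl*, had medians of 2.52 and 3.02 and a difference of 0.50 (SE 0.26, limma adjusted p 0.136). Without the 3 young mice with high hepatocyte markers the difference was -0.00137 in *Nr1d2* and -0.21 in *Clock*, and *Cry2* was called lower at -0.91 (limma adjusted p 0.00112), where 33.3% of all genes were called. That fit leaves young irradiated mice 1, 3 and 6, and the arrays of mice 1 and 6 were among the very similar pairs.

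In old mice exposed to the same dose, 1 of the 8 clock genes was called, *Arntl*, which fell, where 25% of all genes were called. *Arntl*, the partner of *Clock*, ran from 2.79 to 3.25 (median 3.04) in unirradiated and from 0.34 to 2.35 (median 2.14) in irradiated old mice. The groups did not overlap, and the 2 lowest irradiated mice were old irradiated 6 and 4, at 0.34 and 0.96. The difference was -1.30 (SE 0.36), a 2.46-fold lower level, with a limma adjusted p of 0.0135. Without old irradiated mice 4 and 6 it was -0.77 with an adjusted p of 0.0023 and without mice 2, 3 and 5 it was -1.84 with an adjusted p of 0.0027, and both passed. The call was lost without old irradiated 4 or without any 1 of old unirradiated 1, 3, 5 and 6, at differences between -1.30 and -1.15. It was also lost, or *Arntl* was no longer tested, with the 75th percentile, quantile and well-above-background scalings, normexp, the deposited values, only probes well above background on all arrays, a slide or replicate block, and very similar arrays counted as 1. With the slide block 2.87% of all genes were called, and with normexp 0.0679%. Over the 8 genes the median difference was -0.96, against -0.25 over all genes.

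*Clock*, *Per1*, *Cry2* and *Nr1d2* also had lower means in irradiated old mice but did not pass. *Clock* had a median of 1.83 in unirradiated and 1.03 in irradiated old mice, *Per1* of 6.03 and 5.34, *Cry2* of 3.91 and 2.91, and *Nr1d2* of 3.57 and 2.95. The irradiated mice 4 and 6 were the lowest in each of them, at 3.66 and 3.79 in *Per1* and at 1.46 and 1.56 in *Cry2*. A second, dimmer *Cry2* probe did not follow this, with 1.41 and 1.12 in mice 4 and 6 and 0.65 to 1.46 in the other 4, and its difference was -0.65 (SE 0.23, limma adjusted p 0.0465 over all probes), not called. The differences were -1.11 in *Clock* (SE 0.43), -1.07 in *Per1* (SE 0.40), -1.08 in *Cry2* (SE 0.42) and -0.85 in *Nr1d2* (SE 0.39), with limma adjusted p-values between 0.0535 and 0.109. Without old irradiated mice 2, 3 and 5, *Clock* (-1.84), *Cry2* (-1.95), *Nr1d2* (-1.46) and *Dbp* (-1.57) passed with *Arntl*, 5 of 8, where 40.5% of all genes were called. That fit leaves 3 irradiated old mice, of which 2 are mice 4 and 6. Without mice 4 and 6 only *Arntl* passed. *Per2* did not differ by more than its spread, at 0.07 (SE 0.59, limma adjusted p 0.934), and ran from -2.05 to 2.03 in irradiated old mice.

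**Figure D2:**
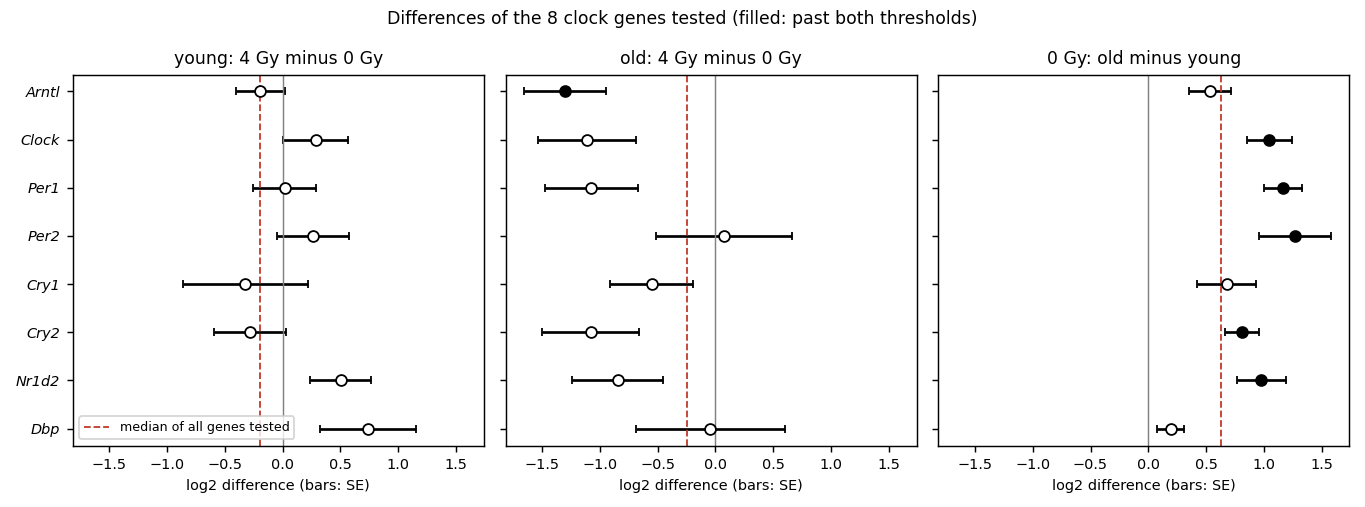
Log2 differences of the 8 clock genes tested (horizontal axis, bars SE) in 3 comparisons of 6 against 6 mice, with filled points for genes past both thresholds and a dashed line at the median of all genes tested. In the comparison of unirradiated mice by age that median is 0.63, and the 5 called genes lie between 0.81 and 1.27.

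*Arntl* was measured by a second, dimmer probe, and the 2 probes gave different pictures in young mice. The brighter probe (A_55_P2408588, NM_007489) lies at chr7:120457261-120457320 and the dimmer one (A_52_P24690, ENSMUST00000209495) at chr7:120386502-120386561, both on the plus strand of mm9, the build the array files use. Fitted over 24123 probes, of which 33.1% (young) and 24.5% (old) passed, 1 of 12 clock gene probes was called in young mice, the dimmer *Arntl* probe, and 2 of 12 in old mice, both *Arntl* probes.
The dimmer probe read -1.08 to -0.31 (median -0.58) in unirradiated and -2.84 to -1.63 (median -2.20) in irradiated young mice, with no overlap. Its means were -0.66 and -2.23 (limma adjusted p 0.000184), but 2 of 6 unirradiated and 0 of 6 irradiated young arrays were well above background, so that the size of the difference is uncertain. With the irradiated spots raised to the lowest signal well above background, the unirradiated mean was 1.07-fold higher. That is no strict lower bound, since most unirradiated spots were not well above background either. In old mice it read 0.02 to 0.60 (median 0.45) before and -2.03 to -0.42 (median -1.85) after exposure, again with no overlap, and 6 and 3 of 6 arrays were well above background. The difference there was -1.92 (SE 0.29), a 3.78-fold lower level with a limma adjusted p of 0.000793. On the single slide that held both old groups, 2 irradiated against 2 unirradiated mice, it was -1.64, while on the slide of the young none of the 4 spots was well above background. The old difference was -1.79 without old irradiated mice 2, 3 and 5 and -1.74 without old irradiated mice 4 and 6, and both passed. With normexp background correction it was -0.28 in both ages and passed in neither. The brighter probe in young mice read 1.98 to 2.90 before and 1.84 to 2.78 after exposure, a difference of -0.19 (SE 0.21, limma adjusted p 0.487 over all probes).
As groups, B cell markers moved with the dimmer probe. Among old irradiated mice the order differed. The highest probe value, -0.42, was in mouse 1 (B cell level 1.59), and the highest B cell level, 4.19, in mouse 3 (probe -1.12). Of 10 markers, 10 were called lower in young and 9 in old irradiated mice, and their mean log2 level went from 5.36 to 5.79 across unirradiated to 2.45 to 3.51 across irradiated young mice, and from 5.77 to 6.75 to 1.33 to 4.19 in old mice. T cell markers were called lower in 9 of 10 in young and 3 of 10 in old mice. Beside both lists, 35.8% (young) and 25% (old) of all genes tested were called in either direction. The part of either cell type in the *Arntl* values was not tested.

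**Figure D3:**
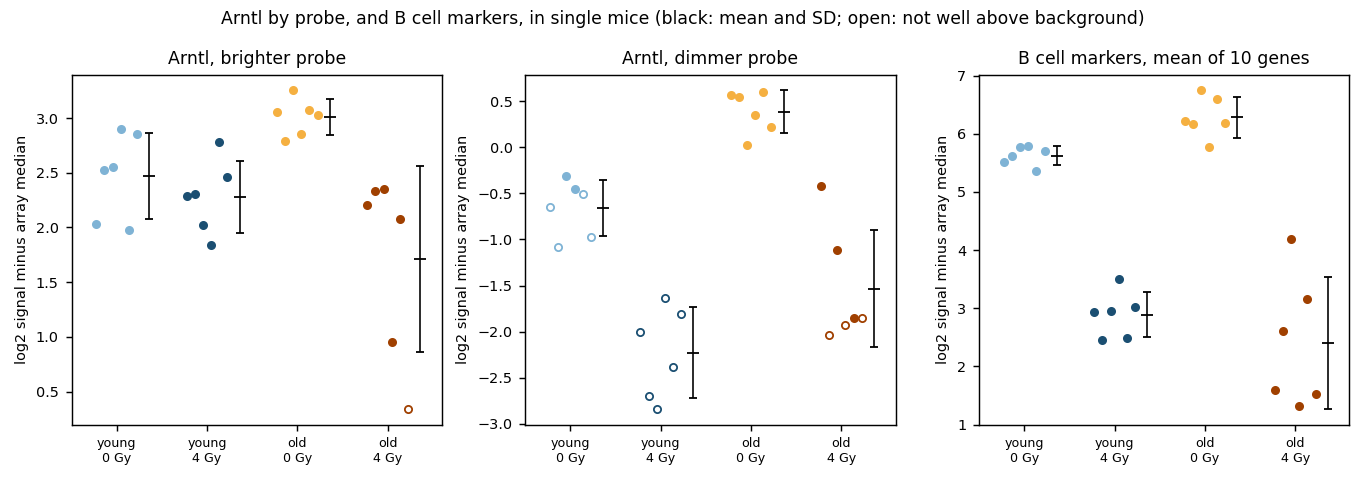
Log2 signal minus array median (vertical axes) of the 2 *Arntl* probes and mean level of 10 B cell markers, 6 mice per group, open circles for spots not well above background. The dimmer probe separates irradiated from unirradiated mice at both ages and the brighter probe only in old mice.

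*Dbp*, a clock output gene that encodes a D-box binding factor, was not called in either age after exposure and spread widely. In unirradiated mice it read 3.78 to 4.17 (median 3.96) in the young and 3.97 to 4.24 (median 4.19) in the old. After exposure it ran from 3.48 to 6.30 (median 4.63) in the young and from 2.16 to 6.06 (median 4.09) in the old. The SD was 0.15 and 0.10 in unirradiated young and old mice, smaller than in most genes, since only 7.33% and 1.37% of the genes tested had a smaller one. The SD was 1.12 and 1.76 in irradiated young and old mice, where 94.7% and 89.3% of genes had a smaller one. The difference of means was 0.74 (SE 0.42, limma adjusted p 0.165) in the young and -0.04 (SE 0.65, limma adjusted p 0.966) in the old. A second *Dbp* probe gave 0.62 (SE 0.37) and -0.02 (SE 0.56).
The high and low *Dbp* values lay in arrays that stood apart. The 6 highest, 5.31, 6.30 and 5.41 in young irradiated mice 2, 4 and 5 and 4.92, 6.06 and 5.96 in old irradiated mice 2, 3 and 5, came from the 6 arrays with hepatocyte markers at 8.12 or more. The lowest, 2.36 and 2.16, came from old irradiated mice 4 and 6. The other irradiated mice read 3.48, 3.96 and 3.79 in the young and 3.26 in the old, close to or below the unirradiated mice. Without the 3 young mice with high hepatocyte markers the difference in young mice was -0.22 (limma adjusted p 0.271). Hepatocyte markers were called higher in 9 of 10 tested in old irradiated mice (25% of all genes called) and in 0 of 10 in young irradiated mice (35.8%). *Alb* ran from -2.81 to -2.25 in unirradiated old mice, well above background in 0 of 6 arrays, and from -2.65 to 12.4 in irradiated old mice. The part of hepatocyte transcripts in the *Dbp* values was not tested.

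*Nr1d1*, which encodes the repressor REV-ERBα, was dim but had a like pattern. It read -2.72 to -0.55 (median -2.34) in unirradiated young mice, with 1 of 6 arrays well above background, and -1.18 to 2.10 (median 1.06) in irradiated young mice, with 5 of 6. The young groups overlapped slightly. In a fit with no filters, where 20.7% of 29742 genes were called in young mice, *Nr1d1* was the only one of the 10 clock genes to be called, with a log2 difference of 2.71 (SE 0.59, limma adjusted p 0.00478) whose size is uncertain, since 5 of the 6 unirradiated spots were not well above background. Its 3 highest young values, 1.57, 2.10 and 1.89, were in the mice with high hepatocyte markers. Without them the difference was 1.57 (SE 0.53) and did not pass, with a limma adjusted p of 0.0625. In old mice it read -2.37 to -0.20 before and -2.22 to 1.84 after exposure, a difference of 1.05 (SE 0.69, limma adjusted p 0.35). Old irradiated mice 2, 3 and 5 again held the 3 highest values, 0.53, 1.84 and 1.34, and without them the difference was -0.41.

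**Figure D4:**
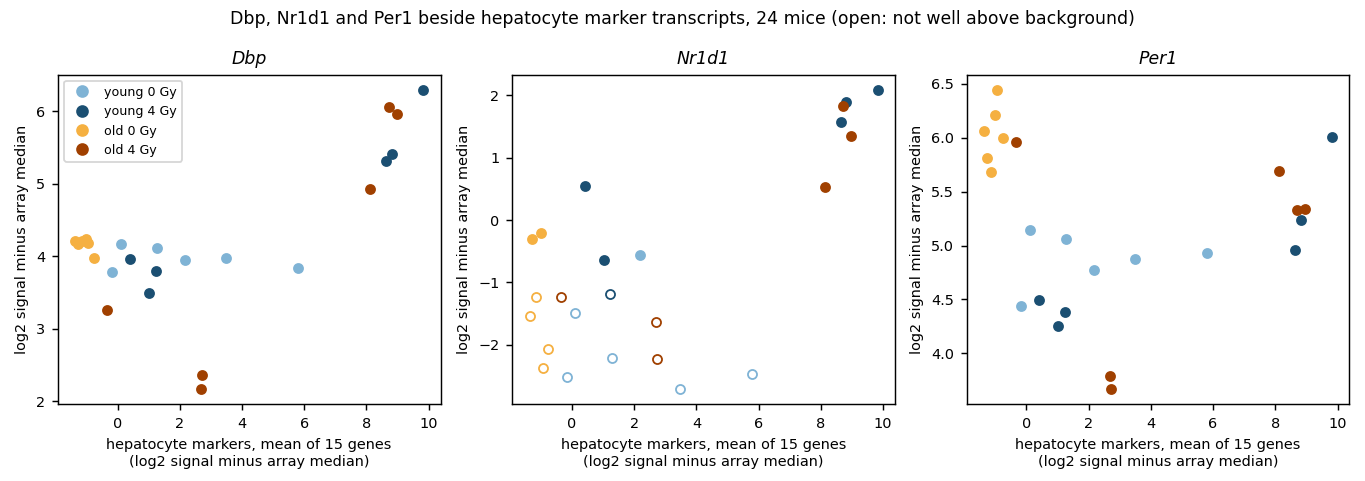
Log2 level of *Dbp*, *Nr1d1* and *Per1* (vertical axes) against the mean log2 level of 15 hepatocyte markers (horizontal axes), 1 point per mouse, 24 mice. The 6 mice right of 8 on the horizontal axis hold the 6 highest *Dbp* values, whereas the highest *Per1* values are in unirradiated old mice.

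The next question was how clock genes differed with age in mice that were not exposed. Here 5 of the 8 clock genes were called, all higher in old mice, at 1.75- to 2.24-fold in the 4 that were well above background in all 12 arrays, where 63.8% of all genes were called. Over the 8 the median log2 difference, old minus young, was 0.89, against 0.63 over all genes. *Per1*, a period gene that glucocorticoids also induce, ran from 4.44 to 5.14 (median 4.91) in young and from 5.69 to 6.45 (median 6.03) in old unirradiated mice. The groups did not overlap, and the difference was 1.17 (SE 0.16, limma adjusted p 4.83e-05), or 0.54 beyond the median of all genes. *Per2* ran from -2.69 to -0.81 in young and from -0.73 to 0.50 in old mice, with 1 and 3 of 6 arrays well above background. Its measured difference was 1.27 (SE 0.31, limma adjusted p 0.00235), of uncertain size because most young spots were not well above background. *Clock* ran from 0.21 to 1.14 in young and from 1.57 to 2.40 in old mice, a difference of 1.05 (SE 0.20, limma adjusted p 0.000359). *Cry2*, a cryptochrome repressor, was higher by 0.81 (SE 0.15) and *Nr1d2* by 0.98 (SE 0.21), both without overlap. *Arntl* (0.54, SE 0.18), *Cry1* (0.68, SE 0.26) and *Dbp* (0.20, SE 0.12) did not pass, with limma adjusted p-values of 0.0144, 0.0265 and 0.136. At the level of probes, where 62.5% of all were called, the dimmer *Arntl* probe was called, at 1.05 (SE 0.16).
These calls depended on how the arrays were scaled. The number called was 1 of 7 tested with scaling to the 75th percentile (37.8% of all genes), 4 of 7 with quantile normalization (3 higher and 1 lower, 37.9%), 2 of 7 with scaling to probes well above background on all arrays (1 higher and 1 lower, 36.5%) and 0 of 5 in the values the authors deposited (29%). *Dbp* was the gene called lower, at -0.38 (quantile) and -0.39 (the scaling to detected probes). A single fit of all 24 arrays called 1 of 8, and 34.8% of all genes. The median of all genes moved from 0.63 to -0.02, 0.11 and -0.11 under the first 3 of these scalings.

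Between irradiated mice of the 2 ages, 0 of the 8 clock genes were called, where 2.00% of all genes were. The differences, old minus young, ran from -0.59 in *Dbp* (SE 0.76) to 1.08 in *Per2* (SE 0.59, limma adjusted p 0.322). *Per2* was well above background in 0 of 6 young and 4 of 6 old irradiated arrays, and the groups overlapped. Without old irradiated mice 4 and 6, *Per2* was called at 1.95 (limma adjusted p 0.00387) while 28.5% of all genes were. The order of the group medians was old unirradiated first in *Per1*, *Arntl*, *Clock*, *Cry1*, *Cry2* and *Nr1d2*, and only *Arntl* in that group was apart from every irradiated mouse of its age. Over all genes the median difference was 0.63 for old minus young unirradiated mice and -0.25 for old irradiated minus old unirradiated mice. The share of all genes with this order, or with no overlap, was not counted.
Whether the response differed between the ages was tested by the interaction, old response minus young response, over all 24 arrays. It called 0 clock genes and 0 of 17464 genes (0%) by limma, where 4116 had an unadjusted p below 0.05 and the lowest adjusted p was 0.0598, and limma with trend and the random variance test also called 0. Of the 8 clock genes 4 had an unadjusted p below 0.05, *Per1* (-1.09, SE 0.50), *Arntl* (-1.11, SE 0.42), *Clock* (-1.40, SE 0.52) and *Nr1d2* (-1.35, SE 0.48), with limma adjusted p-values of 0.135 to 0.192. Without old irradiated mice 2, 3 and 5, which leaves mice 1, 4 and 6, 5 of 8 were called (*Arntl*, *Clock*, *Cry2*, *Nr1d2* and *Dbp*, all lower in the old response) and so were 34.2% of all genes. Without all 6 mice with high hepatocyte markers 4 were called, as were 20.7% of all genes, and without old irradiated 3 alone *Nr1d2* was called at -1.58, with 5.98% of all genes.

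Partners of the clock were read from a wider list. Of 11 partner genes (further activators, ROR activators of *Arntl*, repressors and D-box factors) 9 were tested, and in young mice 3 were called higher and 0 lower (35.8% of all genes were called in either direction), with a median difference of 1.05 against -0.20 over all genes. *Bhlhe40*, a repressor that competes for the E-box, rose from a median of 2.42 to 3.72 in young mice, with no overlap of 1.85 to 3.03 and 3.41 to 4.18, a difference of 1.24 (SE 0.22, limma adjusted p 0.000519). *Nfil3*, the repressor that opposes DBP at the D-box, rose by 1.31 (SE 0.17, limma adjusted p 6.42e-05). *Bhlhe41*, the close relative of *Bhlhe40*, rose by 0.92 (SE 0.21) in young and by 1.27 (SE 0.30) in old mice. In old mice 2 of the 9 were called, where 25% of all genes were, both higher, *Bhlhe41* and *Hlf*, a D-box factor, the latter at 2.95 (SE 0.42, limma adjusted p 0.00055).
*Hlf* stood at -2.82 to -0.38 in unirradiated and 0.43 to 1.80 in irradiated old mice, and 1 and 5 of 6 arrays were well above background, so that the size of its difference is uncertain. It was also called without old irradiated mice 2, 3 and 5, at 2.48, whereas *Bhlhe41* was not, at 1.10 (limma adjusted p 0.0275). Without old irradiated mice 4 and 6 *Bhlhe40* was called in old mice too, at 0.89, where it stood at 0.27 over all 6. *Bhlhe40* and *Nfil3* in young mice kept their calls without the 3 mice with high hepatocyte markers, at 1.12 and 1.14, and *Bhlhe41* at 1.21. With age in unirradiated mice *Nfil3* (1.88, SE 0.22) and *Tef* (1.35, SE 0.23), another D-box factor, were called higher, 2 of 9 against 63.8% of all genes called.

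Of 13 genes that modify clock proteins (kinases, ubiquitin ligases, deubiquitinases and cofactors) 12 were tested. In young irradiated mice 2 were called higher and 4 lower, in old irradiated mice 0 higher and 5 lower, and with age 9 higher and 0 lower, against 35.8%, 25% and 63.8% of all genes called in either direction. The 4 with the highest mean signal were *Csnk1d*, *Nono*, *Gsk3b* and *Fbxw11*. *Csnk1d*, the kinase that marks PER proteins for breakdown, differed by 0.13 (SE 0.14) in young and -0.64 (SE 0.35) in old irradiated mice and passed in neither, and was higher with age by 0.99 (SE 0.15). *Gsk3b*, a kinase of several clock proteins, rose by 1.81 (SE 0.24, limma adjusted p 9.55e-05) in young irradiated mice, and *Fbxw11*, a ubiquitin ligase subunit for PER proteins, by 0.97 (SE 0.21). The 4 called lower there, named after their values were seen, were *Btrc*, the close relative of *Fbxw11*, at -1.82, *Timeless* at -1.34, *Sfpq* at -0.76 and *Usp7* at -0.61. *Nono*, a cofactor of PER proteins, fell by 1.15 (SE 0.33) in old irradiated mice. Glucocorticoid-responsive genes were set beside *Per1*, which belongs to both kinds. Of 9 such genes 8 were tested, and 4 were called higher in young irradiated, 0 in old irradiated and 5 in old against young unirradiated mice, beside the same shares of all genes. *Tsc22d3*, a classic glucocorticoid target, differed by -0.33 (SE 0.14) in young and -0.86 (SE 0.49) in old irradiated mice. It was higher with age by 0.92 (SE 0.16), while *Anxa1* rose by 1.59 (SE 0.18) in young irradiated mice. Old irradiated mice 4 and 6 held the lowest *Tsc22d3* values, 7.38 and 7.22, against 8.75 to 9.94 in the other old irradiated mice. In *Csnk1d* they stood at 5.65 and 5.88, against 7.12 to 7.48 in the others. The glucocorticoid list means were 4.31 and 4.37 in mice 4 and 6, against 5.81 to 6.89 in the others and 5.25 to 5.98 in unirradiated old mice.

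The counts of the other blood lists after exposure stand beside 35.8% (young) and 25% (old) of all genes called in either direction. Platelet markers were called higher in 10 of 10 at both ages. Neutrophil markers were called higher in 4 of 10 in young and 0 of 10 in old irradiated mice, monocyte markers in 5 of 9 (1 lower) and 1 of 9 (3 lower), and erythroid markers were called lower in 5 of 9 in young and 0 of 9 in old mice. Old irradiated mice 4 and 6 stood at 3.72 and 3.77 in the monocyte list, against 6.20 to 6.66 in the other old irradiated mice. With age in unirradiated mice, 8 of 10 neutrophil, 7 of 9 monocyte, 9 of 10 platelet and 5 of 10 B cell markers were called higher, where 63.8% of all genes were called. T cell markers were called higher in 1 and lower in 1 of 10, and erythroid markers in 0 of 9. Hepatocyte markers were called lower with age in 7 of 10, with a median difference of -2.37, from -0.17 to 5.80 in young to -1.37 to -0.76 in old unirradiated mice as list means. Neutrophil markers ran from 4.36 to 5.23 in young and from 5.85 to 7.60 in old unirradiated mice, beside the higher *Per1*, *Per2* and *Clock* levels. The part of these lists in the age differences was not tested.

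Mice of 1 group also differed among themselves in the clock genes, and this was followed in the 12 unirradiated mice, since the irradiated mice formed separate clusters. Over the deviations from the group means, 4 of 28 pairs of genes were correlated with an adjusted permutation p below 0.05. *Cry2* and *Dbp*, a repressor and an output of the loop, were the closest pair, with Pearson r = 0.91 and Spearman rho = 0.95 (permutation p 8e-05 and 5e-05, adjusted p 0.00224 and 0.0014). Without the 2 mice farthest from the median in *Cry2* r was 0.81. *Clock* and *Nr1d2* had r = 0.81 and rho = 0.68 (adjusted permutation p 0.0265 and 0.141), *Clock* and *Cry1* r = 0.82 and rho = 0.66 (0.0433 and 0.141), and *Cry1* and *Nr1d2* r = 0.73 and rho = 0.73 (0.0413 and 0.141). For these 3 pairs rho did not pass after adjustment, and without the 2 farthest mice r was 0.67, 0.55 and 0.70. *Cry1* was well above background in only 4 of the 12. Young unirradiated mouse 5 had the highest hepatocyte markers of the 12, at 5.80. It was the lowest of its group in *Clock* (0.21), *Cry1* (-2.53) and *Nr1d2* (2.07). Old unirradiated mice 1 and 6, whose arrays were very similar, held the highest values of their group in *Clock* (2.10 and 2.40) and *Cry1* (-0.52 and -0.15). The permutation p counts them as separate mice, and no r was taken with them counted as 1. Of the 28 pairs, 20 had a positive r, where 53.6% of all gene pairs over these 12 mice did. The lowest was -0.51 and no negative pair passed. *Arntl* and *Dbp*, which peak at opposite phases in most tissues, had r = 0.60 and rho = 0.35 (adjusted permutation p 0.261 and 0.527). All values of an array share its scaling, which moves every gene of a mouse together. Over all pairs of 17446 genes the median r was 0.04, and 4.37% of pairs were at least as far from 0 as the lowest r called among the clock genes, 0.73, against 4 of the 28 clock pairs (median r 0.43). Over all 24 mice 11 of 28 clock pairs passed, where 21.9% of all gene pairs lay at or beyond the lowest r called. Over the 18 mice without high hepatocyte markers 5 of 28 passed. There 11.0% of all gene pairs and 8 of the 28 clock pairs lay at or beyond the lowest r called, 0.76. Pairs share genes and mice, and these shares carry no test.

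**Figure D5:**
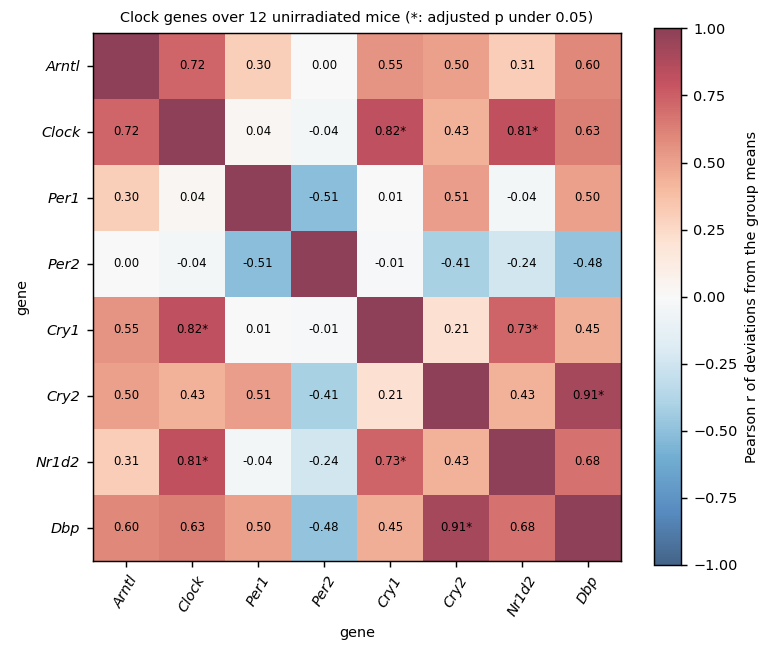
Pearson r (colour and printed value) of the deviations from the group means for each pair of the 8 clock genes tested (both axes), over 12 unirradiated mice, with a star where the adjusted permutation p is under 0.05. *Cry2* and *Dbp* have the highest r, 0.91, and *Per1* and *Per2* the lowest, -0.51.

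The genes whose levels over the 24 arrays were most like those of a clock gene are given here for 7 of the 8 genes tested, and all lay outside the clock. By Pearson r they were *Spns1* and *H13* for *Per1* (both 0.96), *Vps50* and *Setdb2* for *Arntl* (both 0.95), *Gtpbp8* and *Psmc6* for *Clock* (0.95 and 0.94), *Slc33a1* and *Psma7* for *Nr1d2* (0.95 and 0.94), and *Upb1* and *Arhgap35* for *Dbp* (both 0.96). *Upb1* encodes an enzyme of pyrimidine breakdown that is abundant in liver. For *Per2* the closest named gene was *Lins1* (0.92) and for *Cry1* it was *Zfp605* (0.77), the lowest of these values. These r values describe the 24 arrays, which include the differences between groups, and carry no test.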

How the data were processed

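Blood RNA of 24 mice was hybridised to 1-colour Agilent mouse arrays, 4 on each of 6 slides. The deposited scanner files hold intensity per spot, extracted by the authors with Agilent Feature Extraction 12.0.2, background already subtracted. A deposited table holds log2 values normalized and filtered by the authors for 12395 genes, used only as an alternative. Here log2 processed signal minus each array's median was taken after leaving out control spots (43020 of 44397 spots stayed), and repeat spots were averaged. Following the study's methods, dim or flagged spots were filtered, the brightest probe stood for a gene (18729), and genes with under 20% of arrays at least 1.5-fold from their median were dropped (17464 left). Each pair of groups was fitted with limma 3.58.1 in R 4.3.3, and the interaction over 24 arrays, with thresholds of p 0.005 and adjusted p 0.05. p-values measure the spread between arrays, each labelled as 1 mouse. Correlations used 1e+05 permutations. Scripts were tested on simulated data. Well above background is the scanner software's own mark. Where a group had no spot of a probe well above background, its spots were raised to the lowest signal well above background on each array, or kept if higher. Means of log2 values were then taken, with the values of the other group unchanged. The 6 mice of a group were numbered by the labels. Deviations of same-numbered mice had r of either sign, from -0.60 to 0.58. Between old irradiated and old unirradiated mice, numbers 2, 4 and 5 matched their own number best (r 0.25, 0.34 and 0.19). Numbers 1, 3 and 6 did not.

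The members and lists were chosen with earlier results of these data known. Named genes were all members, up to 4 of the brightest genes of a list, every called partner gene, and the 2 genes most like each member, of which those for *Cry2* are not reported here. Marker lists covered B cells, T cells, neutrophils, monocytes, platelets, erythroid cells and hepatocytes. Number of arrays limits precision.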

Additional observations from a re-analysis of the deposited data

Results flagged for a closer look

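In 5 of 40 groups of 6 mice the highest or lowest mouse stood apart from the rest by Dixon's test, which by chance marks about 1 group in 20. *Per2* in young unirradiated mouse 2 (-2.69) and *Cry1* in young unirradiated mouse 5 (-2.53) were the lowest of their groups. *Cry1* in young irradiated mouse 4 was the highest, at 0.84, the mouse that also had the highest hepatocyte markers. *Dbp* in old unirradiated mouse 4 (3.97) lay below 5 mice that were close together. *Per3* in old unirradiated mouse 3 (-2.11) was the highest of a group in which no spot was well above background. All values are log2 levels.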

How the results depend on the processing

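Number of clock genes called. In young mice it was 0 of 8, where 35.8% of all genes were called (such shares follow in brackets). It became 1 of 10 with no filters (*Nr1d1*, 20.7%) and 1 of 8 with the mean of all probes (*Arntl*, -0.88, 35.6%). It was also 1 of 8 without mice with high hepatocyte markers (*Cry2*, -0.91, 33.3%). In old mice it was 1 of 8 (25%). It became 0 of 7 under the 75th percentile (25%), quantile (25.1%) and well-above-background (24.6%) scalings. It was 0 of 5 under normexp (0.0679%) and in the deposited values (20%), and 0 of 4 with probes well above background on all arrays (27.3%). It was 0 of 8 with a slide block (2.87%) and with very similar arrays counted as 1 (18.5%). It became 5 of 8 without old irradiated mice 2, 3 and 5 (40.5%), and ran from 0 to 1 when each mouse was left out (18.3% to 26.2%). With the replicate number as a block it became 0 of 8 (*Arntl* -1.30, limma adjusted p 0.0257, 19.6% of all genes called), and the block changed no other count of clock genes. With age in unirradiated mice it was 5 and became 1 (75th percentile), 2 (well-above-background scaling), 0 (normexp), 0 (deposited values) and 1 (1 fit of 24 arrays), 4 with quantile scaling and with probes well above background on all arrays, 6 with the mean of all probes and a slide block, and 5 to 6 when each mouse was left out. Between irradiated mice it was 0 of 8 (2.00%) and became 1 of 8 without old irradiated mice 4 and 6 (28.5%). For the interaction it was 0 of 8 (0%) and became 5 without old irradiated mice 2, 3 and 5 (34.2%) and 4 without mice with high hepatocyte markers (20.7%). It was 0 to 1 when each mouse was left out (0% to 5.98%). Correlated pairs numbered 11 over 24 mice, 4 over 12 and 5 over 18, beside 21.9%, 4.37% and 11.0% of all gene pairs at or beyond the lowest r called. Leaving out the high hepatocyte mice, leaving out old irradiated mice 4 and 6, counting similar arrays as 1 and the single-probe and 12- and 18-mouse sets were chosen after seeing the data. The causes were not tested.

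Log2 differences that changed sign, none of them called except *Dbp* with age under quantile and well-above-background scaling. Young response: *Per1* was -0.11 (quantile), -0.17 (deposited), -0.39 (slide block) and -0.49 (without high hepatocyte mice), *Per2* -0.26 (slide block), *Cry2* 0.020 (normexp), and without high hepatocyte mice *Clock* was -0.21, *Nr1d2* -0.00137 and *Dbp* -0.22. Old response: *Dbp* was 0.23 (quantile), 0.61 (normexp), 0.24 (deposited), 0.26 (75th percentile), 0.30 (well-above-background) and 0.89 (without mice 4 and 6), and without mice 2, 3 and 5 *Per2* was -0.39 and *Nr1d1* -0.41, while *Per2* was -0.23 (quantile). Age, unirradiated: *Dbp* was -0.38 (quantile), -0.25 (normexp), -0.48 (deposited), -0.32 (75th percentile) and -0.39 (well-above-background), and *Arntl* -0.025 (normexp). Age, irradiated: *Per1* was -0.23 (quantile), -0.22 (normexp), -0.23 (deposited), -0.15 (75th percentile), -0.20 (well-above-background), -0.42 (without mice 2, 3 and 5) and -0.016 (similar arrays), *Cry2* -0.20, -0.092, -0.20, -0.21, -0.26, -0.86 and -0.087 in the same order, -0.011 (slide block) and -0.23 (without high hepatocyte mice), *Arntl* 0.062 (mean of all probes), and without mice 4 and 6 *Clock* was 0.23, *Nr1d2* 0.16 and *Dbp* 0.34. Interaction: *Per2* was 1.19 (slide block), 0.10 (75th percentile), 0.13 (well-above-background) and 0.68 (without mice 4 and 6), *Cry1* 0.71, 0.063, 0.086 and 0.13 in the same order, *Per1* 0.34 (slide block) and *Dbp* 0.15 (without mice 4 and 6). Leaving out each mouse gave -0.20 to 0.15 for *Per1* in the young, -0.34 to 0.47 for *Per2* and -0.43 to 0.35 for *Dbp* in the old, -0.13 to 0.33 for *Per1*, -0.58 to 0.020 for *Clock* and -0.20 to 0.28 for *Cry2* between irradiated ages, and -0.61 to 0.21 for *Per2* and -0.53 to 0.28 for *Cry1* in the interaction. Of the other settings of single genes, 1093 kept direction and side of the threshold, 36 lost the call and 20 gained one. Dim signal limits *Per2*, *Per3*, *Cry1*, *Nr1d1* and the dimmer *Arntl* probe.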
